A study of Homo sapiens with 36 samples.

Results

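The nuclear genes of the mitochondrial ribosome were examined in chromatin immunoprecipitation (ChIP-seq) peak lists of A549, a human lung adenocarcinoma cell line, and of BEAS-2B (B2B), an immortalised bronchial epithelial line that is not cancerous. Members were the GENCODE protein-coding genes whose symbols begin with MRPL or MRPS followed by a number, which gave 78 genes of 20033, spread over 21 chromosomes. A member was called in a list when a peak reached to within 1 kb of an annotated start. The study asked how AP-1 transcription factors act on chromatin in lung cancer. The data analysed here hold RNA polymerase II (pol II), H3K4me3, H3K27ac, Med1, JunB, Jun and JunD in both lines and CTCF and Rad21 in B2B, as 36 samples in 18 groups of 2 replicates, 4 of the samples being input chromatin. No treatment or time course was given by the labels, and each line stands for 1 tumour or 1 donor. The authors merged the replicates before calling peaks, so the 16 lists held no spread between replicates and no test between the lines could be made. Intervals given below are 95% intervals (Wilson for a share, paired for a difference) and cover counting error only.

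The mitochondrial ribosome translates the few proteins that the mitochondrial genome encodes, which are core subunits of the respiratory chain complexes. All of its proteins are encoded in the nucleus, made in the cytosol and imported, and join mitochondrially encoded ribosomal RNA in a large (MRPL) and a small (MRPS) subunit. Some of these proteins have a counterpart in the bacterial ribosome, and others were gained in mitochondria. H3K4me3 marks the start of active or poised genes, H3K27ac marks active promoters and enhancers, and Med1 is a subunit of Mediator, which links transcription factors to pol II. AP-1, a dimer that binds the sequence TGACTCA, takes its Jun-family subunit from Jun, JunB and JunD. CTCF binds DNA at insulators and loop anchors, where the cohesin ring, of which Rad21 is a subunit, is often held.

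The labels of the lines were checked by H3K4me3 at marker genes. In both lines 4 of 5 epithelial genes were called, KRT19 being the exception, and neither of 2 immune genes was. Of 2 fibroblast genes, COL1A1 was called in both lines and PDGFRB in B2B and not in A549. The marker calls of neither line were thus those of epithelial cells alone. Of 4 lung and alveolar genes 3 were called in A549 and 1 in B2B, of 3 basal airway genes 1 and 0, and CDKN2A, which A549 is known to have lost, was called in B2B and not in A549. The lists held 8563 to 61225 peaks. Of the 16 lists 4 stopped at one position in chromosome order, so H3K27ac in A549 covered chromosomes 1 to 12 with 55 members, Med1 in both lines covered 58 members, and pol II in A549 stopped on chromosome 20. The pol II, H3K4me3 and JunB lists of A549 also held no peak on chromosome 17 past 81.2, 81.2 and 81.1 Mb, where 50 coding genes with H3K4me3 in B2B lie. MRPL12 (chr17:81703367-81707517), the counterpart of the bacterial stalk protein, is the member in that stretch and was counted as not covered in those lists.

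**Figure D1:**
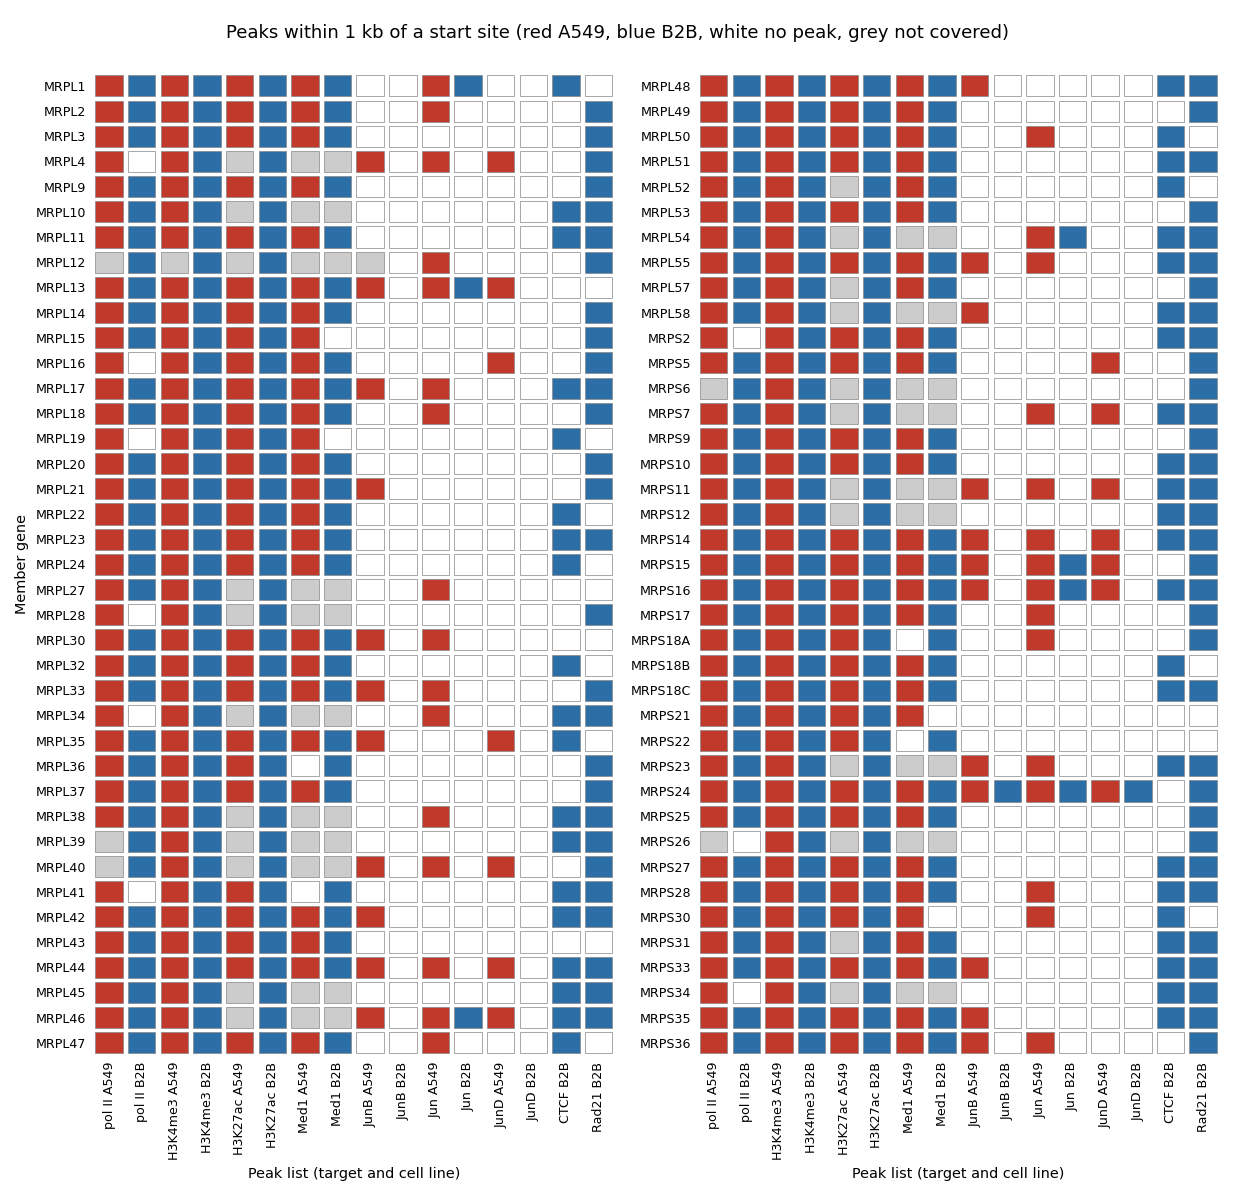
Each row is a member and each column a peak list. A filled square (red A549, blue B2B) is a peak within 1 kb of a start site, white is no peak and grey is a list that did not cover the gene. The columns of pol II, H3K4me3, H3K27ac and Med1 are nearly full in both lines, while the Jun-family columns hold 31 calls or fewer in A549 and 7 or fewer in B2B.

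The first comparison asked whether promoters of the mitochondrial ribosome carried the marks of transcription in both lines, and nearly all of them did. H3K4me3 was called at 77 of 77 covered members in A549 (95.2% to 100%) and at 78 of 78 in B2B (95.3% to 100%), against 72.4% and 61.5% of all protein-coding genes. H3K27ac was called at 55 of 55 covered members in A549 and at 78 of 78 in B2B, where 71.6% and 63.2% of all genes were called. Pol II was called at 73 of 73 covered members in A549 and at 69 of 78 in B2B, against 67.9% and 49.2% of all genes. Med1 was called at 54 of 58 members in each line, against 53.2% and 59.5% of all genes. On chromosomes 1 to 12, which every list covered, 45 of 55 members had all of pol II, H3K4me3, H3K27ac and Med1 in both lines, compared with 42.1% of all protein-coding genes. 

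Genes that had an H3K4me3 peak in both lines are the nearer background, since most silent genes are left out of it. Of these genes 96.9% had pol II in A549 and 79.1% in B2B, 98.6% and 96.2% had H3K27ac, and 81.8% and 91.3% had Med1. The members stood above that background for pol II in B2B (88.5%, 79.5% to 93.8%) and for Med1 in A549 (93.1%, 83.6% to 97.3%), where the intervals begin above it, and their intervals included it for pol II in A549, for Med1 in B2B and for H3K27ac in both lines. The members had a median of 5 annotated start sites and these genes a median of 7.

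**Figure D2:**
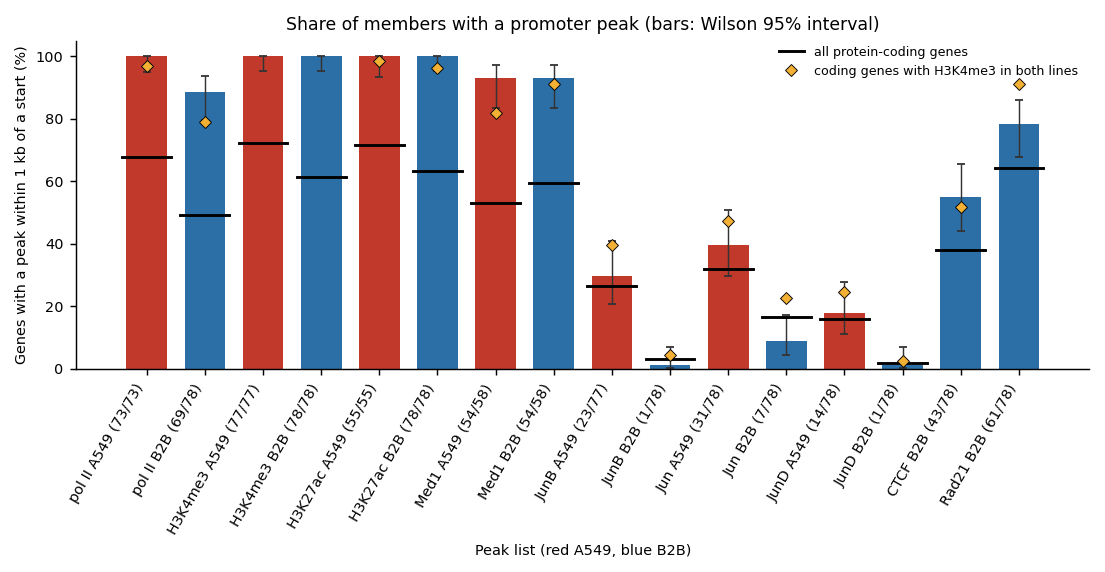
Bars give the percentage of covered members with a peak within 1 kb of a start site in each list (red A549, blue B2B; counts in the axis labels) with Wilson 95% intervals. Black lines give all protein-coding genes and diamonds those with H3K4me3 in both lines. The bars of pol II, H3K4me3, H3K27ac and Med1 stand far above the black lines, and the Jun bar of B2B (9.0%) lies below both its line (16.5%) and its diamond (22.8%).

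Among these 4 marks a difference between the lines in the share of members called was seen for pol II. Over the 73 members covered in both lists, 65 were called in both, 8 in A549 and not in B2B, and none in B2B alone, a difference of 10.96 percentage points (3.67 to 20.2). On chromosomes 1 to 12, which every list covered, the difference was 7.27 points and its interval of -0.605 to 17.3 included 0. The same pattern, A549 and not B2B, was found at 19.1% of all genes and at 18.4% of genes with H3K4me3 in both lines, values that the interval of the members includes, and the reverse at 1.44% and 0.716%. The 9 members with no pol II peak in B2B were MRPL4, MRPL16, MRPL19, MRPL28, MRPL34, MRPL41, MRPS2, MRPS26 and MRPS34, of which MRPS26 was not covered in A549. Their pol II fold enrichment in A549 had a median of 30.2 (11.01 to 66.4, n = 8), beside 53.9 (19.5 to 103) at the 65 members called in both. For H3K4me3, H3K27ac and Med1 the difference between the lines was 0 points, with intervals of -4.75 to 4.75, -6.53 to 6.53 and -10.7 to 10.7. H3K4me3 was called in A549 and not in B2B at 12.4% of all genes and in the reverse at 1.41%, and H3K27ac at 10.8% and 1.96%, or at 3.52% and 0.445% of genes with H3K4me3 in both lines. Med1 calls were not at the same members: 50 members were called in both lines, MRPL36, MRPL41, MRPS18A and MRPS22 in B2B and not in A549, and MRPL15, MRPL19, MRPS21 and MRPS30 in A549 and not in B2B. Over all genes 9.97% had Med1 in B2B and not in A549 and 3.68% the reverse, and among genes with H3K4me3 in both lines 12.4% and 2.85%.

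The strength of the peaks could be split into its parts. MACS2 reports fold enrichment as the summit pileup over a local background, each plus 1, and a Poisson p-value, and from these the number of reads at the summit and the background were solved for each peak. At the members the median pol II fold enrichment was 52.4 in A549 and 5.65 in B2B. The median summit held 198 reads in A549 and 139 in B2B, whereas the median local background was 2.36 reads in A549 and 23.04 in B2B. H3K4me3 gave a median fold of 37.8 and 5.60, with 183 and 146 reads at the summit and a background of 3.63 and 23.5 reads. H3K27ac gave a median fold of 69.0 and 7.74, with 232 and 175.5 reads and a background of 2.16 and 21.4 reads. Med1 stood apart from these, with a median fold of 10.6 in A549 and 9.35 in B2B, 27 and 28.5 reads at the summit, and a background of 1.99 and 2.01 reads.

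Depth was not given with the lists, so reads are comparable within a list and not as levels between lines. Within each list, the median background of the members can be set against the lowest local background solved in it. The lowest was 1.65 reads in A549 and 1.67 in B2B for pol II. It was 2.43 and 2.48 for H3K4me3 and 1.25 and 1.44 for H3K27ac. The median of the members was 1.43, 1.49 and 1.73 times the lowest in A549 and 13.8, 9.47 and 14.8 times in B2B. The counts that follow set summit reads and background of the lines side by side without scaling for depth, which could shift them. Fold enrichment was higher in A549 at 65 of 65 members called in both lines for pol II, 77 of 77 for H3K4me3 and 55 of 55 for H3K27ac, and the summit held more reads in A549 at 57, 72 and 44 of them. The local background was higher in B2B at every member for pol II and H3K4me3 and at all but 2 for H3K27ac. For Med1 the summit held more reads in A549 at 27 of 50 members. Ranked among the called genes of the same list, the members had a median pol II percentile of 59.7 in A549 and 63.6 in B2B, and pol II ranked higher in A549 at 38 of the 65. The 9 members with no pol II peak in B2B had a median H3K4me3 background of 44.1 reads in B2B (23.3 to 77.8), beside 21.4 (5.83 to 66.1) at the 69 called members. The part of the local background in the B2B calls was not tested.

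**Figure D3:**
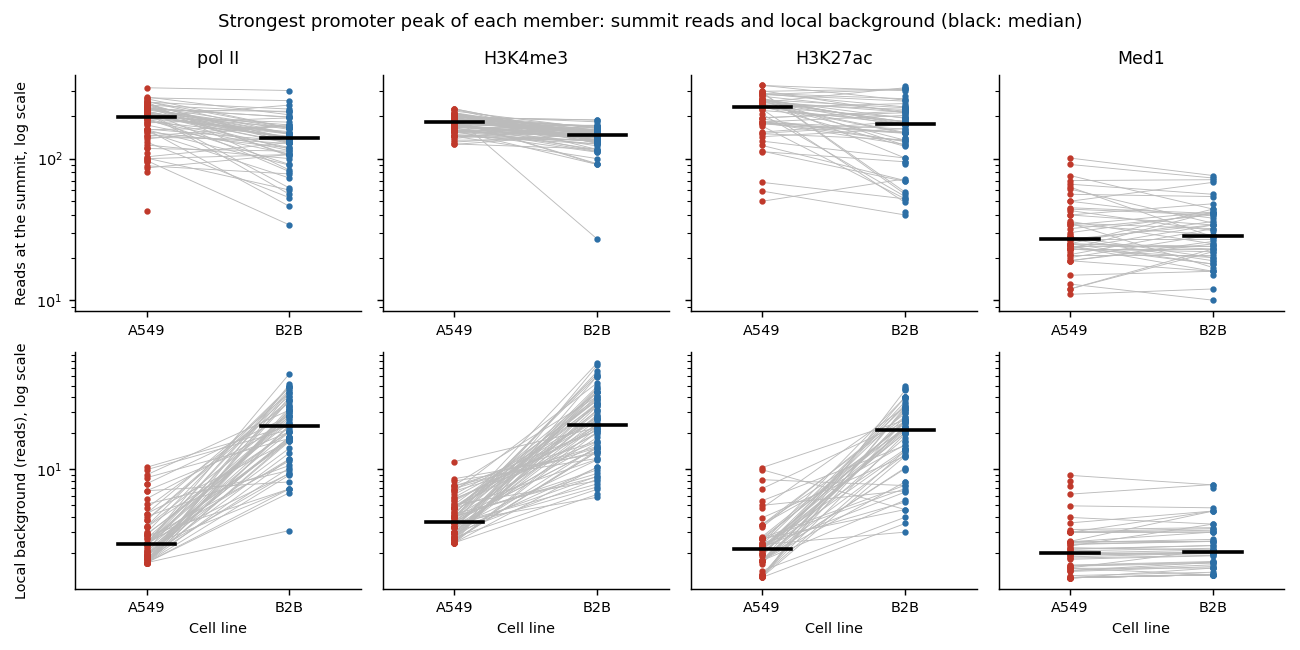
Reads at the summit (top) and local background in reads (bottom) of the strongest promoter peak of each member, on log axes, for 4 targets in A549 (red) and B2B (blue). Grey lines join the same member and black bars are medians. The median backgrounds of pol II, H3K4me3 and H3K27ac are 2.36, 3.63 and 2.16 reads in A549 and 23.04, 23.5 and 21.4 in B2B, while those of Med1 are 1.99 and 2.01.

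Among the members, pol II fold enrichment spanned 9.38-fold in A549 and 19.8-fold in B2B. In A549 it was highest at MRPS15, a small-subunit protein with a bacterial counterpart, with 103-fold enrichment, 273 reads at the summit and a background of 1.65 reads. MRPL18, which binds the small ribosomal RNA of the large subunit in bacteria, followed at 102-fold, but its summit lay 879 bp upstream of its canonical start, beyond the start of the divergent gene TCP1 at 764 bp. MRPS33 came next at 87.7-fold with its summit 18 bp downstream of the start. The lowest in A549 were MRPL28 at 11.01-fold with 43 reads, MRPS34 at 13.9-fold with 118 reads over a background of 7.56, and MRPL24 at 19.5-fold. MRPL28 and MRPS34 both lie on chromosome 16 and both lacked a pol II peak in B2B.

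In B2B pol II was strongest at MRPL1, the counterpart of the protein of the bacterial ribosomal side stalk, with 37.3-fold enrichment and 151 reads over a background of 3.07. MRPS18B and MRPS18C, paralogues of 1 bacterial small-subunit protein, followed at 23.8-fold with 303 reads and 22.002-fold with 172 reads. The lowest called members were MRPL43 at 1.88-fold with 60 reads over a background of 31.4, MRPL20 at 2.17-fold with 113 reads over 51.5, and MRPL11 at 2.30-fold with 114 reads over 49.0. The peak counted for MRPL11 had its summit at -28124 bp from the canonical start, at an alternative start. The weakest members of B2B thus had both fewer reads and a higher background than the strongest.

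Med1 gave the same leading members in both lines. MRPL44, whose protein has a fold of the RNase III family, had 30.9-fold enrichment with 91 reads in A549 and 24.8-fold with 73 reads in B2B. MRPS18B had 30.3-fold with 101 reads in A549 and 21.9-fold with 76 reads in B2B, with summits at -568 and -598 bp, near the start of the divergent gene PPP1R10 at 596 bp. MRPL30 came next in A549 at 20.7-fold, and MRPL3, which in bacteria reaches towards the catalytic centre of the ribosome, came next in B2B at 18.2-fold. MRPL3 had a Med1 fold enrichment of 20.6 in A549 and MRPL30 one of 11.6 in B2B.

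For H3K27ac the leading members differed between the lines. In A549 they were MRPS5 at 147-fold, MRPL18 at 115-fold and MRPL47 at 107-fold. In B2B they were MRPS18C at 32.5-fold, MRPS18B at 29.3-fold and MRPL32 at 19.4-fold. At all of these but MRPS5 the summit lay upstream, beyond the start of a divergent coding gene. In A549 the summit of MRPL18 lay at -1144 bp (TCP1 at 764 bp) and that of MRPL47 at -283 bp (nearest start at 52 bp). In B2B the summits lay at -415 bp for MRPS18C (HELQ at 203 bp), -1014 bp for MRPS18B (PPP1R10 at 596 bp) and -440 bp for MRPL32 (nearest start at 162 bp). The background under the 3 leading peaks was 1.25 to 1.29 reads in A549 and 4.61 to 5.53 reads in B2B, low in both cases for the list concerned.

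The marks took the order along the promoter that is usual for active genes. The median summit of pol II lay 23 bp downstream of the canonical start in A549 and 34 bp in B2B. The median summit of H3K4me3 lay 171 and 158 bp downstream and that of H3K27ac 131 and 121.5 bp downstream. Med1 summits lay upstream, at a median of -42 bp in A549 and -51 bp in B2B, as did those of CTCF at -80 bp and Rad21 at -43 bp in B2B. Genes with H3K4me3 in both lines gave similar medians of 20 and 37 bp for pol II and 182 and 175 bp for H3K4me3. The strongest peaks of the lines overlapped at 64 of 65 members for pol II, 75 of 77 for H3K4me3 and 47 of 50 for Med1. H3K4me3 peaks at the members had a median width of 2249 bp in A549 and 1030 bp in B2B, a gap shared by all called genes, with 2169 and 973 bp.

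**Figure D4:**
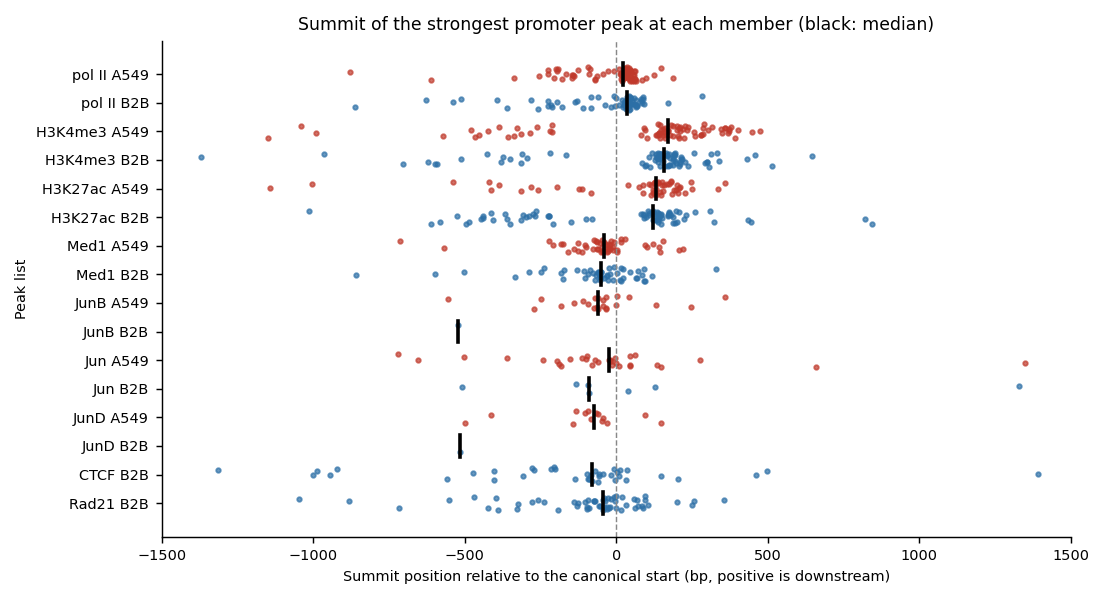
Position of the summit of the strongest promoter peak of each member relative to its canonical start in bp, for each list (red A549, blue B2B; black bars are medians). Of 719 summits 19, at 6 members with distant alternative starts, fall outside the 1500 bp shown. Pol II summits gather just downstream of the start, H3K4me3 and H3K27ac summits further downstream, and Med1 summits just upstream.

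The study centres on AP-1, so the Jun family was compared next, and peaks of each of the 3 proteins were seen at more members in A549 than in B2B. JunB was called at 23 of 77 covered members in A549 (29.9%, 20.8% to 40.8%) and at 1 of 78 in B2B, where 26.4% and 3.02% of all genes were called. Jun was called at 31 of 78 members in A549 (39.7%, 29.6% to 50.8%) and at 7 in B2B (8.97%, 4.42% to 17.4%), against 31.9% and 16.5% of all genes. JunD was called at 14 members in A549 (17.9%, 11.004% to 27.9%) and at 1 in B2B, against 15.8% and 1.75%. The differences between the lines were 28.6 points for JunB (18.1 to 39.5), 30.8 points for Jun (20.0 to 41.2) and 16.7 points for JunD (8.15 to 26.6). No member was called in B2B and not in A549 for any of the 3. Over all genes 23.9% had JunB in A549 and not in B2B and 0.527% the reverse, for Jun the shares were 19.7% and 4.32%, and for JunD 14.9% and 0.854%. Among genes with H3K4me3 in both lines the same pairs were 36% and 0.661%, 29.5% and 4.85%, and 23.3% and 1.16%.

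These counts were close to those of other genes. In A549 the intervals of JunB, Jun and JunD included both the share of all genes and that of genes with H3K4me3 in both lines (39.6%, 47.4% and 24.6%). In B2B 4.29% of the latter had JunB and 2.5% JunD. The exception was Jun in B2B, whose interval of 4.42% to 17.4% lay below the 22.8% of genes with H3K4me3 in both lines and included the 16.5% of all genes. The JunB lists were of unequal length, with 28068 peaks in A549 and 8563 in B2B. When the A549 list was cut to its 8563 strongest peaks by q-value, JunB was left at 1 of 77 members in each line, a difference of 0 points, whereas over all genes the same step left 6.87% in A549 and 3.03% in B2B. For Jun, where the B2B list is the longer, the same step gave 31 and 6 members (39.7% and 7.69%), beside 31.9% and 14.4% of all genes. For JunD it gave 10 and 1 members (12.8% and 1.28%), beside 13.8% and 1.75%. With −log10 q of at least 5 JunD was left at 9 and 1 members, a difference of 10.3 points (3.04 to 19.1). At members with a Jun peak the local background was also higher in B2B, with a median of 6.37 reads (n = 7) beside 1.68 in A549 (n = 31). Members without a peak have no such value, and the part of the background in the difference was not tested.

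In A549 the Jun-family peaks at the members had median ranks below the middle of the genes called in the same list. No interval was computed for these ranks. Among all genes called in a list, the members had a median fold percentile of 42.7 in the JunB list, 29.9 in the Jun list and 37.0 in the JunD list of A549. Above the middle of the called genes stood 7 of 23, 7 of 31 and 3 of 14 members. The median summit held 20 reads for JunB, 17 for Jun and 16.5 for JunD. Of 77 members covered by all 3 lists in A549, 39 had at least 1 Jun-family protein, while 37.6% of all genes and 56.2% of genes with H3K4me3 in both lines did. Jun alone was found at 13 members, JunB alone at 6, JunD alone at 2, JunB with Jun at 6, a pair that included JunD at 2, and all 3 at 10. All 3 were found at 11.7% of all genes and at 18.3% of genes with H3K4me3 in both lines. Shares over other genes were not computed for the other combinations, so their counts are not set apart from those of the lists. MRPL12, which the JunB list did not cover, had a Jun peak with 6.42-fold enrichment and 13 reads.

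In B2B 7 of 78 members had a Jun-family peak, against 16.5% of all genes and 22.9% of those with H3K4me3 in both lines, and each of them also had one in A549. They were MRPS24, MRPL46, MRPL1, MRPL13, MRPL54, MRPS16 and MRPS15. MRPS24 (chr7:43866558-43869893, minus strand) was the one member with all 3 proteins in both lines, a pattern that in B2B was found at 1.43% of all genes and 2.06% of those with H3K4me3 in both lines. At MRPS24 Jun had 25.9-fold enrichment with 64 reads in A549 and 21.6-fold with 158 reads in B2B. JunB there had 5.91-fold with 20 reads in A549 and 3.50-fold with 38 reads in B2B, and JunD 4.96-fold with 17 reads and 3.14-fold with 34 reads. The 6 summits lay between -554 and -500 bp of the canonical start, and Jun was the strongest of the 3 in both lines.

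The other members bound in both lines had Jun and no JunB or JunD in B2B. At MRPL46 (chr15:88459477-88467390, minus strand) the Jun summit lay inside the gene, 1349 bp downstream of the canonical start in A549 and 1328 bp in B2B, near an alternative start. It had 12.5-fold enrichment with 28 reads in A549 and 13.5-fold with 36 reads in B2B. The strongest JunB and JunD peaks of MRPL46 in A549 were at other sites, with summits at -250 and 95 bp, and are also those counted for MRPS11. At MRPL1 (chr4:77862830-77952785, plus strand) the fold enrichments were also alike, 6.65 in A549 and 7.01 in B2B, but the summits lay at -721 and -132 bp and the peaks did not overlap. MRPL13 had 8.33-fold in A549 and 4.29-fold in B2B, and MRPL54 6.44-fold and 3.62-fold.

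At the other 2 the fold enrichments of the lines lay farther apart. MRPS16 (chr10:73248843-73252693, minus strand), in which inherited mutations cause a respiratory chain deficiency, had the highest summed Jun-family fold enrichment of the members in A549, with 18.6 for JunB, 23.5 for Jun and 5.30 for JunD. In B2B it had Jun at 3.53-fold, with 65 reads at the summit as in A549, over a background of 17.7 reads against 1.81 in A549. MRPS15 (chr1:36455718-36464384, minus strand) had 8.53, 13.3 and 3.17-fold for JunB, Jun and JunD in A549 and Jun at 3.40-fold in B2B, with 39 reads in A549 and 66 reads over a background of 18.7 in B2B. Since depth was not given, the reads and backgrounds of the lines are set side by side and not compared as levels.

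After MRPS16, MRPS24, MRPS15 and MRPL46, the members with all 3 proteins and the highest summed fold enrichment in A549 were MRPS14 and MRPL4. MRPS14 had 6.30 for JunB, 10.5 for Jun and 5.32 for JunD, with 20 or 21 reads at each summit. MRPL4, whose bacterial counterpart lines the exit tunnel of the ribosome, had 8.15, 8.01 and 4.75-fold with 24, 15 and 12 reads. Neither had a Jun-family peak in B2B. Members with a Jun-family peak in A549 had a median Med1 fold enrichment of 12.5 (n = 27) in that line, beside 6.33 (n = 27) at members without one, and a median pol II fold of 59.7 (n = 38) beside 43.1 (n = 35). Their medians of H3K4me3 were 37.9 and 37.6 and of H3K27ac 66.8 and 70.8. The ranges overlapped in each case, and these are descriptions with no test.

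**Figure D5:**
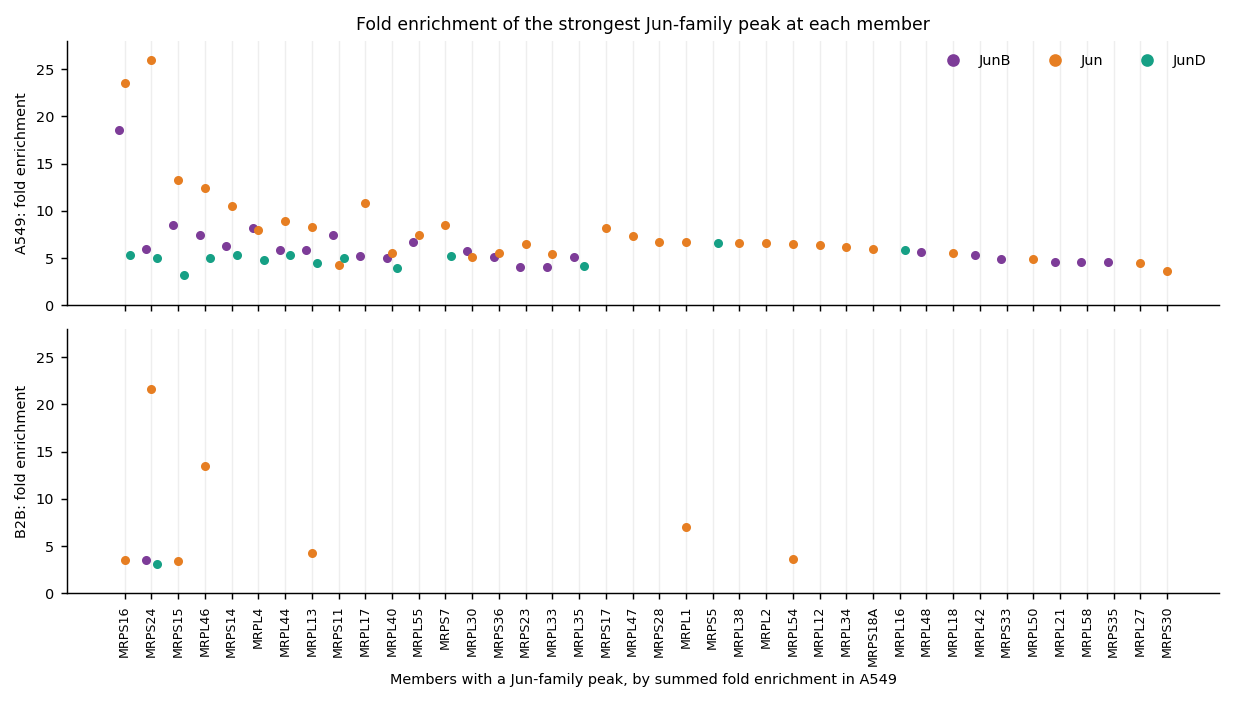
Fold enrichment of the strongest JunB, Jun and JunD peak at the 40 members with any Jun-family peak, ordered by the summed fold enrichment in A549, with A549 above and B2B below. MRPS16 and MRPS24 lead in A549, most members lie between 3 and 10, and 7 members have a point in B2B, with MRPS24 and MRPL46 above 10.

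Sequence was then read at these promoters to see which of 6 motifs the bound members carried. RefSeq promoter windows of 250 bases before to 50 bases after the start (GRCh38.p14) were matched by symbol for 69 of 78 members, and for 64 of these the RefSeq start lay within 50 bp of the GENCODE canonical start. The motifs, searched on both strands, were TGACTCA for AP-1, TGACGTCA for the cyclic AMP response element (CRE), CCGGAAG for ETS factors, GCATGCGC for NRF1, AAGATGGCG for YY1 and ATTGG for the CCAAT box. None of the 69 windows held the AP-1 or the CRE letters (0% to 5.27% for each), and the interval includes the 3.68% and 2.64% of 15367 protein-coding promoters that did. The windows of the 4 members with the highest summed Jun-family fold enrichment in A549 are shown because each was bound in both lines, with capitals marking any of the 6 motifs. They span chr10:73252595-73252894 for MRPS16, chr7:43869468-43869767 for MRPS24, chr1:36464335-36464634 for MRPS15 and chr15:88467339-88467638 for MRPL46, each read from the minus strand.
MRPS16: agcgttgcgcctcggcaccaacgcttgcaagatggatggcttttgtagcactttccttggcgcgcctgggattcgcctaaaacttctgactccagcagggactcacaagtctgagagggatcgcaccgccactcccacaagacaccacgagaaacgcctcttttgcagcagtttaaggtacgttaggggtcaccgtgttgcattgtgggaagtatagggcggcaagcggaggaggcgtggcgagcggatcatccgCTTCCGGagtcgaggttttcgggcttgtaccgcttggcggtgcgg
MRPS24: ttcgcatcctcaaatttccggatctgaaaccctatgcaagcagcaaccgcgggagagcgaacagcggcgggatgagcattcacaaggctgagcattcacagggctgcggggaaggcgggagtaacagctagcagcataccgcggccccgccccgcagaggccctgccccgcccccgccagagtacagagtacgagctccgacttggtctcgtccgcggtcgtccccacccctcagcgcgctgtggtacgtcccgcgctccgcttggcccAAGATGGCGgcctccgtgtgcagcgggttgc
MRPS15: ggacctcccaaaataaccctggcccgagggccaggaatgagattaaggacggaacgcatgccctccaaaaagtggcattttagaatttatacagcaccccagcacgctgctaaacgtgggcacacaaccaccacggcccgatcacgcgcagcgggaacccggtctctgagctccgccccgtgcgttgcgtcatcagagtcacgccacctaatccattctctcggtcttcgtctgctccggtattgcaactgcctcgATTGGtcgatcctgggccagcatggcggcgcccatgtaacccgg
MRPL46: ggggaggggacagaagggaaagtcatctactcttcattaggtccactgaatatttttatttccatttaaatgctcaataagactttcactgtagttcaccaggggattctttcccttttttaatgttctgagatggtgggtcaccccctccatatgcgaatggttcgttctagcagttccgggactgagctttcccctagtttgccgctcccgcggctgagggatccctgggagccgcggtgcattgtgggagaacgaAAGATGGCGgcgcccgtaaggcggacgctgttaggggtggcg

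In these windows the start is the base at position 251 counted from the 5′ end. MRPS16 held the ETS letters 6 bases after the start, MRPS24 and MRPL46 the YY1 letters at 20 and 9 bases, and MRPS15 the CCAAT box letters at 7 bases. The Jun summits of MRPS24 lay upstream of its window, and those of MRPS16 and MRPL46 lay downstream of theirs. The letters in capitals in these windows are thus not at the Jun summits. The 101 bases around the A549 Jun summit of MRPS24 (chr7:43869968-43870068, hg38, minus strand) held the CCAAT box letters, in capitals, and none of the other 5 motifs.
MRPS24 summit: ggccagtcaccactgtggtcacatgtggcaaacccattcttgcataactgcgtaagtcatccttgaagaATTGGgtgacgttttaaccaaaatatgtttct

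The windows around the summits were searched as well. Within 100 bp of the strongest Jun summit in A549, TGACTCA was found at 3 of 31 members (9.68%, 3.35% to 24.9%), while it was found at 26.0% of 7436 Jun peaks within 1 kb of any coding start and at 52.8% of 28166 Jun peaks farther away. JunB summits in A549 held it at 1 of 22 peaks of members (0.807% to 21.8%), against 29.4% of promoter peaks and 57.5% of other peaks, the 22 peaks serving 23 members. The intervals of Jun and JunB in A549 thus end below the share of promoter peaks. Those promoter peaks were not limited to genes with H3K4me3 in both lines and were not matched for peak strength. The median ranks of the Jun-family peaks at members in A549 were below the middle. Whether other peaks of like strength at such genes hold the letters as seldom was not tested. JunD summits held it at 1 of 13 (1.37% to 33.3%), beside 17.8% and 48.5%, and in B2B 2 of 7 Jun summits at members held it (8.22% to 64.1%), beside 43.0% and 45.2%, so that neither differed from promoter peaks by more than the counting error. The ETS letters were found at 7 of 31 Jun summits of members in A549 (22.6%, 11.4% to 39.8%), beside 10.2% of promoter peaks and 0.973% of other peaks. They were found at 4 of 22 JunB summits (7.31% to 38.5%), beside 8.80% of promoter peaks, and at 2 of 13 JunD summits (4.33% to 42.2%), beside 12.3%, values that these intervals include. The members with AP-1 letters near a Jun summit were MRPS16, MRPL46 and MRPS18A, and MRPL4 was the one with CRE letters. Their sites are shown with 29 bases each, from the strand of the gene, with the motif in capitals (TGAGTCA is TGACTCA read on the other strand). They lie at chr10:73252451-73252479, chr15:88466043-88466071, chr6:43687649-43687677 and chr19:10252172-10252200 of hg38.
MRPS16: gtccacctcagTGAGTCAtcgggccaccg
MRPL46: ctggattgtggTGAGTCAgcaggcattgc
MRPS18A: ttcagggaaggTGAGTCAtgcgtcccagc
MRPL4: gtcgcgtgcgTGACGTCAtccagcggcgc

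The site of MRPS16 lay 179 bp downstream of its canonical start and within 52 bp of all 4 Jun-family summits called there. The site of MRPL46 lay 18 bp from the Jun summit of A549 and 3 bp from that of B2B, at the start inside the gene. The CRE letters of MRPL4 lay 28 bp upstream of the start and within 34 bp of the 3 summits of A549. The RefSeq start of MRPL4 lies at -263 bp from the canonical start, so its promoter window did not reach these letters. MRPS16 and MRPL46 were thus the members with AP-1 letters at a Jun summit in both lines. These matches are letters in a window and were not tested as binding sites.

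The letters that stood out in the promoters of the members were those of ETS factors and YY1. CCGGAAG was found in 29 of 69 windows (42.03%, 31.1% to 53.8%), while 14.4% of all windows and 20.5% of windows of genes with H3K4me3 in both lines held it. AAGATGGCG was found in 13 windows (18.8%, 11.4% to 29.6%), beside 2.79% and 4.22%. The NRF1 letters were found in 6 windows (8.70%, 4.05% to 17.7%), beside 4.24% and 5.81%, and the CCAAT box letters in 20 (29.0%, 19.6% to 40.6%), beside 36.6% and 37.4%. The shares of ETS and YY1 thus lay above both backgrounds by more than the counting error, while the intervals of NRF1 and the CCAAT box included both. Of 39 ETS matches 21 began in the 50 bases before the start (53.8%, beside 37.3% of matches over all genes). Of 14 YY1 matches 10 began in the 50 bases after it (71.4%), close to the 68.7% over all genes. The 10 members with YY1 letters after the start are shown with up to 10 bases on each side to let the shared core be compared, read from the strand of the gene, with the YY1 letters in capitals (GRCh38.p14: MRPL22 chr5:154941098-154941122, MRPL38 chr17:75904860-75904888, MRPL42 chr12:93467512-93467540, MRPL46 chr15:88467362-88467390, MRPL50 chr9:101398577-101398605, MRPS10 chr6:42217834-42217862, MRPS18A chr6:43687764-43687792, MRPS18B chr6:30617853-30617881, MRPS24 chr7:43869480-43869508, MRPS30 chr5:44808950-44808978).
MRPL22: gggagggcgaAAGATGGCGgcggca
MRPL38: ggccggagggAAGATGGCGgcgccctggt
MRPL42: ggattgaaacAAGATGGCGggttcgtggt
MRPL46: gggagaacgaAAGATGGCGgcgcccgtaa
MRPL50: gatctcatcgAAGATGGCGgcgcgatctg
MRPS10: cgggaccggcAAGATGGCGgcgcggacag
MRPS18A: taggtttttgAAGATGGCGgccctcaagg
MRPS18B: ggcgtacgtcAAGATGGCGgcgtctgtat
MRPS24: cgcttggcccAAGATGGCGgcctccgtgt
MRPS30: atcgcgggcaAAGATGGCGgcggccaggt

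These 10 matches all lie on the strand of the gene. They began 7 to 36 bases after the start. A Jun-family peak in A549 was present at 7 of the 10, beside 34 of the 69 members with a window. Among genes with H3K4me3 in both lines 56.2% had one. The 10 are few, and a link between the YY1 letters and Jun-family peaks was not tested. Over all members ETS letters were as frequent with a Jun-family peak in A549 (14 of 34, 41.2%) as without one (15 of 35, 42.9%), and YY1 letters were found in 7 of 34 and 6 of 35.

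CTCF and Rad21 were read in the lists of B2B, where they tell how often these promoters coincide with insulator and cohesin sites. CTCF was called at 43 of 78 members (55.1%, 44.1% to 65.7%), against 38% of all genes and 51.7% of genes with H3K4me3 in both lines. Rad21 was called at 61 members (78.2%, 67.8% to 85.9%), above the 64.4% of all genes and below the 91.1% of genes with H3K4me3 in both lines. Both were found at 32 members (41.0%), beside 33.3% of all genes and 47.7% of genes with H3K4me3 in both lines. Rad21 without CTCF was found at 29 members (37.2%), CTCF without Rad21 at 11 (14.1%) and neither at 6 (7.69%). For these last patterns the shares over other genes were not computed, so the counts are descriptions only.

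The strongest CTCF peaks stood away from the canonical starts. MRPL39 had 45.5-fold enrichment with 171 reads at -988 bp, MRPS11 had 42.2-fold with 105 reads near an alternative start 9048 bp into the gene, and MRPL11, whose bacterial counterpart sits at the base of the ribosomal stalk, had 17.7-fold with 183 reads at -279 bp. The highest Rad21 values were at MRPS12 with 19.6-fold and 175 reads at -470 bp, MRPL34 with 19.4-fold and 232 reads at -326 bp, and MRPS31 with 16.9-fold and 176 reads at -94 bp. The median member had a CTCF fold of 5.46 and a Rad21 fold of 5.91, over backgrounds of 13.1 and 13.998 reads. Those values ranked at the 35.8 and 43.8 percentile of called genes.

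The members were also compared by subunit and origin. The large subunit, which here takes in MRPS30, gave 30 members with a bacterial counterpart and 20 that are specific to mitochondria. The small-subunit groups had 18 and 9. MRPS18A was counted among the 18 by its symbol, and its subunit was not checked. MRPS36 was kept apart, since it is now counted as a subunit of the 2-oxoglutarate dehydrogenase complex. Pol II in B2B was called at 25 of 30 and 19 of 20 of the large-subunit groups and at 17 of 18 and 7 of 9 of the small-subunit groups. Jun in A549 was called at 13 of 30, 7 of 20, 9 of 18 and 1 of 9, and JunD at 4, 3, 7 and 0 of the same members. The group of 18 had the highest shares, 50% for Jun and 38.9% for JunD. Among genes with H3K4me3 in both lines the shares were 47.4% and 24.6%, so its Jun share was near that of other genes. The 18 include MRPS11, whose JunB and JunD peaks are also those counted for MRPL46. JunB was more even, at 8 of 29, 6 of 20, 5 of 18 and 3 of 9. CTCF was called at 13 of 30, 14 of 20, 10 of 18 and 6 of 9. The groups are small, and no difference among them was tested.

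Other genes of mitochondrial translation were read in the same lists, 58 in all, of which 5 are ribosomal proteins under other symbols, 22 assembly factors, 14 translation factors and 17 aminoacyl-tRNA synthetases. Pol II was called at 55 of 55 covered genes in A549 and at 54 of 58 in B2B, H3K27ac at 39 of 39 and 58 of 58, and Med1 at 40 and 42 of 44. Jun was called at 24 of 58 in A549 and 8 in B2B, JunB at 21 and 0, and JunD at 12 and 0. CTCF was called at 29 and Rad21 at 53 of 58. These shares were near those of the members, and the largest gap was in Rad21 (91.4% against 78.2%).

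The 93 genes of the cytosolic ribosome and the 87 nuclear genes of respiratory chain subunits give a scale for the Jun family. JunB in A549 was called at 45.2% of cytosolic ribosomal protein genes (35.4% to 55.3%), 29.9% of the members and 25.3% of respiratory chain genes (17.3% to 35.3%). The interval of the members overlapped both of the others, which did not overlap each other. Jun in A549 was called at 48.4%, 39.7% and 37.9%, and Jun in B2B at 16.1%, 8.97% and 11.5%. Pol II in B2B was called at 96.8%, 88.5% and 79.3%. The median distance from the start to the nearest JunB summit in A549 was 25.6 kb for the members, 5.11 kb for cytosolic ribosomal protein genes and 25.8 kb for respiratory chain genes, beside 14.9 kb for genes with H3K4me3 in both lines and 27.7 kb for all genes.

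Many members share their promoter with a neighbour. Another protein-coding gene started on the opposite strand within 1 kb upstream at 29 of 78 members (37.2%, 27.3% to 48.3%), compared with 12.6% of all genes, 19.3% of genes with H3K4me3 in both lines, 21.5% of cytosolic ribosomal protein genes and 32.2% of respiratory chain genes. The median distance between the starts was 144 bp. A peak within 1 kb at these members cannot be assigned to either gene. Among the pairs were MRPL46 with MRPS11, both members, MRPS12 with SARS2, a mitochondrial seryl-tRNA synthetase, MRPL43 with TWNK, the mitochondrial replicative helicase, MRPL47 with NDUFB5, a subunit of complex I, and MRPL49 with FAU, a ribosomal protein gene of the cytosol. Med1 was called at 20 of 20 covered members with such a partner and at 34 of 38 without one, in each line. Jun in A549 was called at 12 of 29 and 19 of 49, JunB at 6 of 29 and 17 of 48, and Rad21 in B2B at 20 of 29 and 41 of 49.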

How the data were processed

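Members, gene lists and motifs were chosen with earlier results of these data known. As stated in the study's methods, the authors aligned reads to hg38 with Bowtie2 2.4.4, removed duplicates with their own code, merged the replicates, scaled coverage with SAMtools 1.13 and called peaks with MACS2 2.2.7.1. The options of the caller, its control and the depth of each sample were not given in the sources used here. The 16 lists hold 1 row per peak. The authors deposited for each peak a fold enrichment at the summit, a −log10 p-value and a −log10 q-value, and a score that is 10 times the latter rounded down. The lowest −log10 q-value in the deposited lists was 2.00.

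Starts came from GENCODE release 44, and a chromosome was used where the list covered it. The end of a chromosome was left out past the last peak of a list where at least 5 genes would have been called at the list's own share among genes with H3K4me3 in B2B, which touched 3 lists. Pileup and background were solved from fold enrichment and p-value, with the p-value recovered to within 0.00137 on the −log10 scale. Shares, Wilson and paired (Newcombe) intervals were computed in Python 3.11.15 with NumPy 2.4.6 and SciPy 1.17.1, and Matplotlib 3.10.9 drew the plots. The interval, solving and motif functions were tested on simulated data. Genes named were those with a Jun-family peak in B2B, the 6 with all 3 proteins and the highest summed fold enrichment in A549, the 3 highest and 3 lowest for pol II, and the 3 highest for Med1, H3K27ac, CTCF and Rad21. Other genes were named where they carry a motif, a partner or a missing call, after their values were seen.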

Additional observations from a re-analysis of the deposited data

How the results depend on the processing

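The 9 shares and differences were recomputed with −log10 q of at least 5, within 500 bp, within 3 kb, from the canonical start alone, by summit, with partly covered chromosomes kept, with lists of equal length and, chosen after the data were seen, on chromosomes 1 to 12, with members past the last peak of a chromosome kept and without members that have a coding partner. The settings reuse the same lists and members, and the H3K27ac difference was 0 points under each, so many values had little room to move. Of 82 recomputed values 80 stayed within counting error of the reported one. The exceptions were JunB with lists of equal length, a difference of 0 points, and CTCF within 3 kb, 66.7%, for which the share of all genes in the wider window was not computed. Of the others, the pol II difference fell to 7.27 points on chromosomes 1 to 12, with an interval that included 0 (-0.605 to 17.3), and the JunD difference to 10.3 points with −log10 q of at least 5 (3.04 to 19.1). No paired analysis was possible because each list pools both replicates, and for the same reason no replicate could be left out. Depth was not given, so a missing peak is not shown to be absent binding.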
